A study of Rattus norvegicus with 20 samples.

Results

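The comparison described here sets whole blood of rats given the higher dose of STW5 against whole blood of rats given the lower dose. It rests on 8 of the 20 arrays of the series, chosen by their titles: 4 arrays labelled STW5 2 ml/kg and 4 labelled STW5 0.5 ml/kg, 1 array per rat. All 8 were from Wistar rats in which reflux esophagitis had been induced by surgery, and both groups had received STW5 for 7 days before the operation and for 10 days after it. The groups thus shared the strain, the operation, the drug and the schedule, and differed by the dose in their labels. Age, sex and cell counts of the rats were not given in the sources used here. The other 12 arrays were from sham-operated rats, untreated rats with esophagitis and rats given omeprazole at 30 mg/kg (4 each), and they entered the statistical fit to estimate the spread between rats. The question is whether gene expression in blood differed with the dose of the extract.

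STW5 is a liquid of medicinal plant extracts that is used for functional dyspepsia and irritable bowel symptoms. Reflux esophagitis is an inflammation of the esophagus caused by the reflux of gastric contents. RNA of whole blood comes from red cell precursors and reticulocytes, which carry globin mRNA, from platelets, and from leukocytes, of which neutrophils and lymphocytes are the main classes in the rat. A transcript level in such a sample therefore depends on the cell makeup of the blood as well as on regulation within cells, and in bulk samples fewer cells of a type and less RNA per cell cannot be told apart.

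The assignment of the doses has a limit that touches each sign below. All signs follow the titles of the arrays and are given as 2 minus 0.5 ml/kg. The titles and the design text of the series number the dose groups in opposite order. In the value table deposited by the authors, the columns of 12 arrays followed the scanner file of that same array. The 8 STW5 columns instead followed scanner files of the opposite dose, number for number. Taken from that table by its column names, the difference per gene correlated at -0.9997 across 15231 genes with the one reported here, and all 24 leading genes had the opposite sign. Sizes and spreads hold under either assignment, and which dose was higher does not. Both doses lay on 1 slide, where the array position in the scanner header began with 1 for all 0.5 ml/kg arrays and with 2 for all 2 ml/kg arrays, so that position on the slide and dose cannot be told apart.

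The 2 ml/kg arrays were dimmer. The 75th percentile of the processed signal was 152, 308, 288 and 186 on the 0.5 ml/kg arrays 1 to 4, and 77.7, 71.3, 163 and 105 on the 2 ml/kg arrays 1 to 4. The groups overlapped only through 2 ml/kg array 3, which was brighter than 0.5 ml/kg array 1. On the log2 scale the mean was 6.63 ± 0.54 (SD, n = 4) against 7.80 ± 0.49, a difference of -1.18 with an exact two-sided permutation p of 0.0571, where 8 arrays allow no p below 0.0286. The share of probes well above background was 47.2% ± 3.99 (SD, n = 4) against 54.7% ± 2.89, with the same exact permutation p of 0.0571. Spike-in RNA, which does not come from the blood, gave like signals at both doses (log2 12.6 ± 0.09 and 12.6 ± 0.13, SD, n = 4, difference 0.09, exact permutation p = 0.343). The 75th percentile relative to the spike-ins separated the groups without overlap (difference -1.27, exact permutation p = 0.0286, the smallest that 8 arrays allow).

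**Figure D1:**
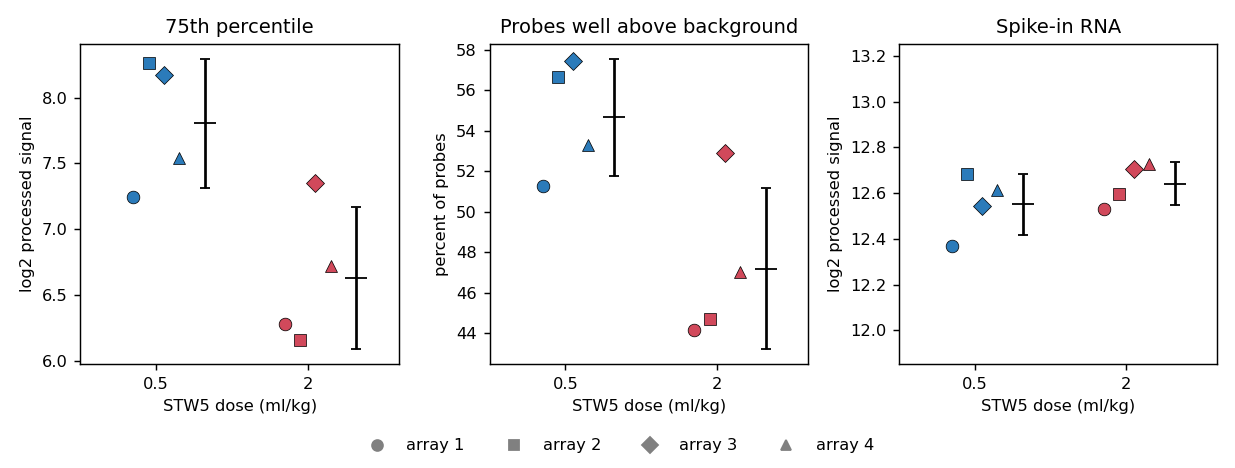
Signal of the 8 STW5 arrays by dose: log2 of the 75th percentile of processed signal, percent of probes well above background, and mean log2 signal of spike-in RNA. Marker shapes give the array number within a dose and black bars the mean ± SD of 4 arrays. The 2 ml/kg arrays lay at 6.63 against 7.80 for the 75th percentile, with array 3 alone reaching the range of the other dose, while the spike-ins differed by 0.09.

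Each level below is log2 of the processed signal minus log2 of the 75th percentile of that array, so 0 is a probe at the 75th percentile. This scaling removes the overall difference in signal, and it does not remove a difference that depends on the brightness or the sequence of a probe. Globin probes show what the scaling does at the bright end. Before scaling, the log2 signal of Hbb-b1, a beta globin, was 18.68, 18.55, 18.67 and 18.54 on the 0.5 ml/kg arrays and 18.59, 18.57, 18.53 and 18.46 on the 2 ml/kg arrays. That is nearly the same on all 8 arrays, with overlapping groups and a difference of -0.08. After scaling, the same probe lay 1.10 higher at 2 ml/kg (SE 0.36). The signal of Hba-a1, an alpha globin, differed by -0.11 before scaling and by 1.07 after it. The signal of Rplp0, a ribosomal stalk protein, differed by -0.18 before scaling and by 0.99 after it. No spot was saturated by the scanner's own mark.

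No gene passed the test. Of 15231 genes tested, 10900 with a symbol, 0 reached an adjusted p below 0.05 in limma with Benjamini-Hochberg adjustment (percent called 0), and the lowest adjusted p was 0.0540, shared by 42 genes. An adjusted p below 0.1 was reached in limma by 1022 genes (6.71%), 789 with a higher (5.18%) and 233 with a lower mean at 2 ml/kg (1.53%). At an unadjusted limma p below 0.05 stood 4052 genes (26.6%), 2977 higher (19.5%) and 1075 lower (7.06%). The 4 arrays of 1 dose all lay on 1 side of the 4 arrays of the other for 1703 genes (11.2%), 1120 higher (7.35%) and 583 lower (3.83%). Of all genes tested 9092 had a higher and 6139 a lower mean at 2 ml/kg. The median gene lay 0.18 higher at 2 ml/kg, with a median SE of 0.35, and this shift is the level against which lists of genes are read below.

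The absence of calls depended on the setting. With spike-in scaling the median gene lay at -1.09 and 7773 genes passed limma at 0.05, all of them lower at 2 ml/kg. This scaling moves the difference of every gene by the same -1.27. Genes and lists therefore keep their order and their distance from the median gene, and signs that turn under it below reflect this common shift. With quantile normalization, which forces the arrays to 1 distribution, the median gene lay at -0.06, 0 genes passed, and the split at unadjusted p below 0.05 was 1817 higher and 1905 lower. Leaving out 2 ml/kg array 3 gave 806 calls, leaving out 0.5 ml/kg array 1 gave 243 and leaving out 0.5 ml/kg array 4 gave 144. Over 15231 genes, the nearest of the other 7 arrays to 2 ml/kg array 3 was 0.5 ml/kg array 4 (r = 0.983), and the reverse. The median correlation was 0.959 between doses, 0.972 within 0.5 ml/kg and 0.960 within 2 ml/kg, as a description across genes.

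The 24 genes with a symbol and the lowest p, 12 in each direction, had adjusted p values of 0.0540 to 0.0553 in limma, so that none passed. By the order of p they are those with the clearest separation, and in all 24 the arrays of the doses did not overlap (background 11.2%), which follows in part from that choice. Log2 differences ran from 0.98 to 1.67 in size among the 12 higher genes and from 1.00 to 1.76 among the 12 lower ones.

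Stk11, also named LKB1 and 1 of the 12 higher genes, is the kinase that activates AMPK when cellular energy is low. Its level was -0.98, -1.95, -1.52 and -1.26 at 0.5 ml/kg and -0.10, -0.02, -0.60 and -0.34 at 2 ml/kg. Every 2 ml/kg array lay above every 0.5 ml/kg array, by 1.16 in the mean (SE 0.23, adjusted p = 0.0540 in limma). Shoc2, a scaffold that promotes RAF activation downstream of RAS, lay at 0.47, 0.76, 0.45 and 0.87 against 1.86, 1.88, 1.54 and 1.83. The groups were 1.14 apart (SE 0.22), with 2 ml/kg array 3 the lowest of its dose. Pik3c2b, a class II phosphoinositide 3-kinase, differed by 1.28 (SE 0.24). Ppp1r3g directs protein phosphatase 1 to glycogen, and its difference of 1.61 (SE 0.30) rests on dim spots that were well above background on 1 of 4 arrays at each dose.

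Etv3, an ETS-family transcriptional repressor, lay at 0.17, -1.13, -0.83 and 0.02 at 0.5 ml/kg and at 1.13, 1.97, 0.49 and 1.31 at 2 ml/kg. The spread within each dose was wide (SD 0.64 and 0.61), and the means were 1.67 apart (SE 0.33). Cep250, a protein that links the centrioles, lay at 4.90, 3.81, 4.03 and 4.97 against 5.94, 6.78, 5.39 and 6.02. In both genes the order of the arrays within a dose was similar, with 0.5 ml/kg arrays 2 and 3 low and 2 ml/kg array 2 high, and those 0.5 ml/kg arrays were the brightest of the 8 and that 2 ml/kg array the dimmest. Acin1, a nuclear protein of chromatin condensation and splicing, differed by 1.11 (SE 0.22), and its other tested probe by 1.14. Srp72 is a subunit of the signal recognition particle, which guides nascent secretory proteins to the endoplasmic reticulum. It differed by 0.98 on its brightest probe (SE 0.18), while the other 2 probes of the gene differed by -0.62 and -0.16.

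The remaining higher genes were Dcaf6, Clec2g, Znrf4 and Brinp2. Dcaf6 is a substrate receptor of CUL4 ubiquitin ligases and lay at 0.09, -0.33, -0.60 and 0.14 against 1.22, 1.81, 0.94 and 1.30. Its groups were 1.5 apart (SE 0.28) and did not overlap. Clec2g, a C-type lectin of the family of NK receptor ligands, differed by 1.29 (SE 0.25), Znrf4, a membrane E3 ubiquitin ligase, by 1.56 (SE 0.30), and Brinp2, a gene known from neurons, by 1.65 (SE 0.33). With spike-in scaling the means of Srp72, Shoc2, Stk11 and Acin1 turned to lower at 2 ml/kg. Their differences were smaller in size than the common shift of -1.27, and the other 8 kept their direction.

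The lower genes are given singly, without a common function. Ap1s2, a subunit of the clathrin adaptor that sorts cargo at the trans-Golgi network, lay at 2.35, 3.02, 3.09 and 2.42 at 0.5 ml/kg and at 2.07, 1.55, 1.94 and 1.2 at 2 ml/kg. The gap between the groups was narrow, and the means were -1.03 apart (SE 0.22, adjusted p = 0.0553 in limma). Another probe of Ap1s2 differed by 0.16. Trappc8 belongs to a complex that tethers transport vesicles, and it lay at -2.24, -1.86, -1.97 and -2.64 against -3.38, -4.05, -3.40 and -3.57, well above background on 1 of 4 arrays at 2 ml/kg. Cept1, which makes phosphatidylcholine and phosphatidylethanolamine, differed by -1.32 (SE 0.29). Slc66a3, a multi-span membrane protein, had the widest difference of the 12, -1.76 (SE 0.32), and the 0.5 ml/kg arrays spread from -1.19 to 0.49.

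Vav3, a guanine nucleotide exchange factor that acts in immune receptor signalling, lay at -0.39, 0.39, -0.01 and -0.46 at 0.5 ml/kg and at -1.52, -0.94, -0.76 and -1.24 at 2 ml/kg. All 2 ml/kg values were below all 0.5 ml/kg values on this probe (difference -1.0, SE 0.21), whereas the other probe of Vav3 differed by 0.67, in the opposite direction. Rpe, an enzyme of the pentose phosphate pathway, differed by -1.28 (SE 0.26) on the brightest probe and by -0.21 on another. Cacul1, a protein that promotes cell cycle entry, lay at -0.31, -0.09, -0.10 and -0.40 against -1.19, -1.91, -1.12 and -1.29, a difference of -1.15 (SE 0.22). Wdr33, a subunit of the complex that recognises polyadenylation signals, differed by -1.43 (SE 0.32). Fam118b was not well above background on any 2 ml/kg array and lay at least 2.10-fold lower there (measured means -4.25 and -2.55). The others were Tmem62 (-1.40), Spg21 (-1.03) and Zfp347 (-1.06).

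**Figure D2:**
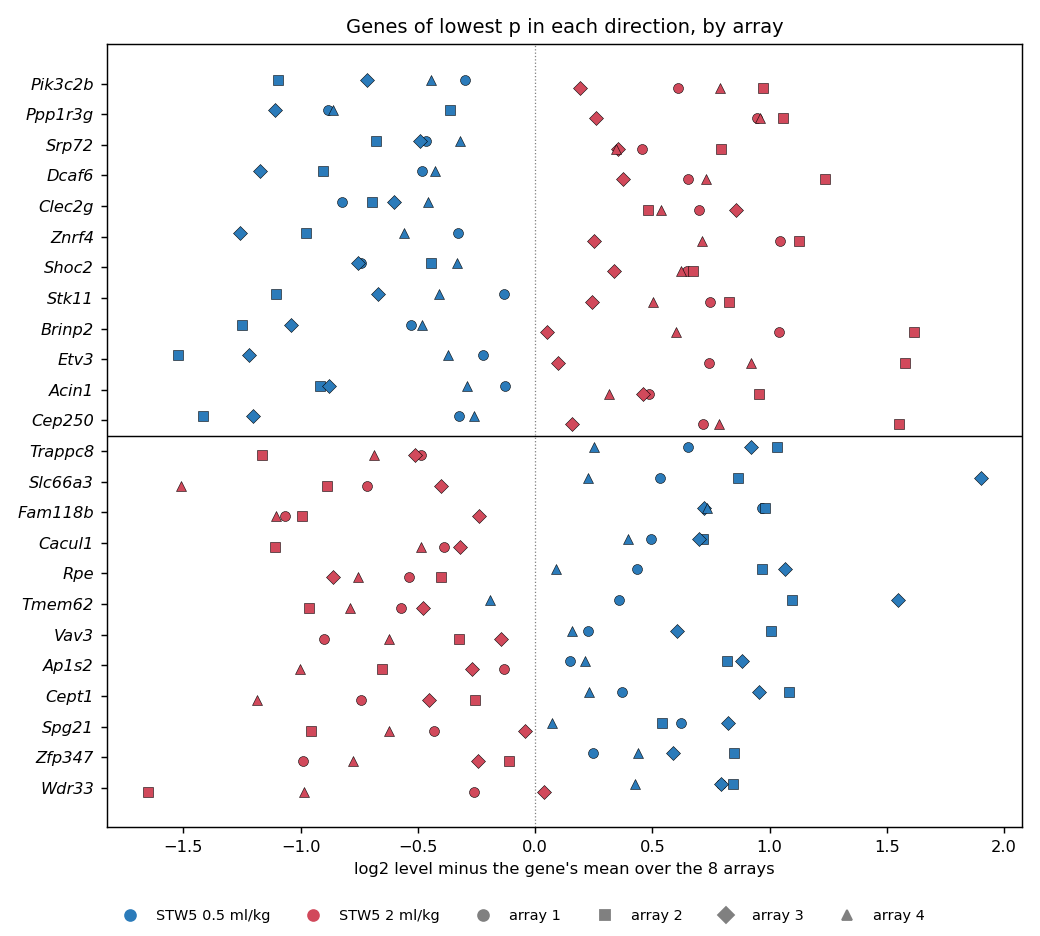
Levels of the 24 genes of lowest p on the 8 STW5 arrays, each as log2 level minus the gene's own mean over the 8 arrays; the 12 with a higher mean at 2 ml/kg are above the line and the 12 with a lower mean below it. Colours give the dose and shapes the array number. The doses did not overlap in any of the 24, by sizes of 0.98 to 1.76, and none passed the adjusted threshold. With spike-in scaling, which moves every gene by -1.27, Srp72, Shoc2, Stk11 and Acin1 turned sign.

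For genes with several tested probes among the 24, the probes disagreed in part: of 2 such higher genes 1 had other probes of the same sign by their median, and of 3 such lower genes 1 did. Of the higher genes 9 of 12 were well above background on all 8 arrays, and of the lower genes 3 of 12, so the lower group lies nearer to the detection limit at 2 ml/kg. Their part in the result was not tested.

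The higher and the lower genes also differed in the base composition of their probes. The 12 higher genes had probes of 40.0% to 70.0% G and C with a median of 53.3%, 9 of 12 above the median of all genes tested (45.0%). The 12 lower genes had probes of 35.0% to 45.0% with a median of 40.8%, and 0 of 12 above that median. In the printed stretches given below, the contrast was small between Etv3 (14 of 30 bases G or C) and Cacul1 (13 of 30). The sequences below are examples, the first 30 of the 60 bases of 6 array probes as given in the scanner files. They are written from 5′ to 3′ with G and C in capitals, the first 3 from higher genes and the last 3 from lower genes.
Znrf4: aGCaCCaCGtCCCtGGGGatGGCtGaGaaC
Stk11: tGGaCtCCGaGaCCttatGCCGCaGGGCGG
Etv3: tGGatttCatGCCCtCtCGaaatGCtCtCa
Slc66a3: CtaCCCaattCttaGGGattttGttCataC
Cacul1: CatttGGaaGtGGtttCttCtaCCCaGCtt
Zfp347: CtattCatGtaatCaGtGtGGtaaaGCCtt
Over the 60 bases of each probe, G and C made up 70.0% in Znrf4, 55.0% in Stk11 and 51.7% in Etv3, against 35.0% in each of Slc66a3, Cacul1 and Zfp347. In the rn4 assembly named by the scanner files, the Stk11 probe lies at chr7:11102442-11102501 and that of Slc66a3 at chr6:40676726-40676785, both on the minus strand. The Etv3 probe lies at chr2:179575714-179575773 on the plus strand, that of Cacul1 at chr1:267132163-267132222 on the minus strand and that of Zfp347 at chr7:8940092-8940151 on the plus strand, while the Znrf4 probe is on sequence not placed on a chromosome. Exon and UTR positions of the probes were not used here.

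The relation to base composition held over all genes as a description. Across 15231 genes the difference between doses correlated with the G and C content of the probe at r = 0.358 (Spearman's coefficient 0.357), where genes are not independent replicates and share the 8 arrays. With the genes in 5 bins of equal size, the bin of lowest G and C content (18.3% to 38.3%) had a median difference of -0.21, and the bin of highest content (53.3% to 90.0%) one of 0.53. The 3 bins between lay at 0.04, 0.41 and 0.17, so the order was not even. At unadjusted limma p below 0.05 the highest bin held 32.5% higher and 1.90% lower genes, and the lowest bin 8.11% higher and 14.0% lower genes. By mean level the medians were 0.23, 0.19, 0.06, 0.04 and 0.35 from the dimmest to the brightest bin (r = 0.0977). Spots were well above background in 33.2% of the gene and array pairs of the dimmest bin at 2 ml/kg, against 73.2% at 0.5 ml/kg. Genes without a symbol (4331, median probe content also 45.0%) lay higher than genes with one, with a median of 0.49 against 0.05.

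**Figure D3:**
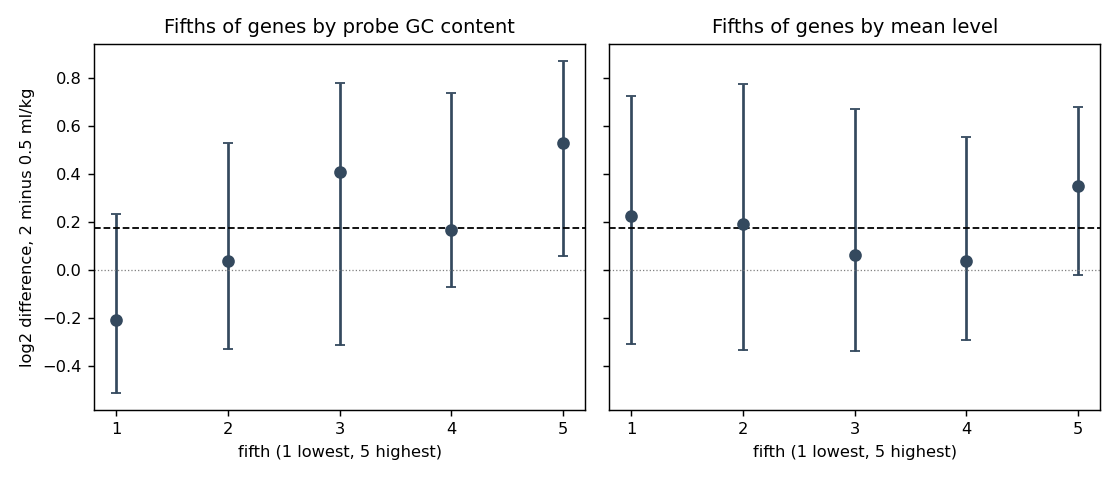
Median log2 difference between 2 and 0.5 ml/kg in 5 equal bins of the 15231 genes, by G and C content of the probe on the left and by mean level over the 8 arrays on the right. Bars span the quartiles and the dashed line is the median of all genes at 0.18. Medians ran from -0.21 to 0.53 with base composition and from 0.04 to 0.35 with level.

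The difference between doses followed the relation of each gene with array signal in arrays of other groups. In the 12 sham, untreated and omeprazole arrays, a slope of level on the log2 75th percentile was fitted within groups for each gene. This slope correlated with the dose difference at r = -0.584 across genes (Spearman's coefficient -0.604), again a description, in which both quantities have been scaled by the same percentile. Of the 2977 genes higher at unadjusted limma p below 0.05, 90.1% had a negative slope, and of the 1075 lower genes 83.2% had a positive one, where 8128 of 15231 genes had a negative slope. The named genes followed this less closely on the higher side: 8 of the 12 higher genes had a negative slope, and 11 of the 12 lower genes a positive one. Shoc2 (0.22), Ppp1r3g (0.25), Clec2g (0.14) and Srp72 (0.03) had slopes opposite to that pattern. With log2 signal as a covariate 0 genes passed, and the 24 genes kept their sign with limma adjusted p of 0.116 to 0.262. The 4 STW5 arrays of like signal were 2 ml/kg arrays 3 and 4 and 0.5 ml/kg arrays 1 and 4. Among them the sign of all 24 was fixed beforehand, as the doses did not overlap in any of these genes. Their differences had a median of 0.737 of the full difference, at limma adjusted p of 0.953 or more.

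Neutrophils are the phagocytes that arrive first at sites of acute inflammation. Of 25 tested genes typical of mature neutrophils 24 had a lower mean at 2 ml/kg, against 6139 of all 15231 genes, with a list median of -0.59 against 0.18 for all genes. None passed. At unadjusted limma p below 0.05, 3 were lower (12%, background 7.06%) and 0 higher (background 19.5%), and the doses did not overlap in 1 of 25 (background 11.2%). Mmp8, neutrophil collagenase, lay at 2.46, 0.20, 1.14 and 1.33 at 0.5 ml/kg and at 0.38, 0.90, -0.83 and -1.71 at 2 ml/kg. The doses overlapped, with 2 ml/kg arrays 3 and 4 lowest (difference -1.60, SE 0.72, adjusted p = 0.168 in limma). Itgb2, the shared beta chain of the leukocyte integrins, differed by -0.71 (SE 0.28), and Trem1, a receptor that amplifies inflammatory responses, by -1.06 (SE 0.50). S100a8, a subunit of the calcium-binding complex calprotectin, differed by -1.12 (SE 0.81), with 2 ml/kg array 4 at 2.59 and the other 7 arrays at 4.63 to 6.64.

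The neutrophil list was carried unequally by the arrays. Its score, the mean over members of level minus the gene's mean, relative to the array's median gene and centred on the 8 arrays, was 0.56, 0.19, 0.72 and 0.08 at 0.5 ml/kg and -0.07, 0.01, -0.21 and -1.29 at 2 ml/kg. All 2 ml/kg arrays scored below all 0.5 ml/kg arrays, and array 4 was far below the rest. Without 2 ml/kg array 4 the list median was -0.28. In the 4 arrays of like signal, which include it, the median was -0.82, and with log2 signal as a covariate it was -0.33. Relative to the median of all genes the list lay at -0.77, at -0.48 without 2 ml/kg array 4 and at -0.27 with the covariate.

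Granule and precursor genes of neutrophils split. Of 15 tested genes 9 lay lower and 6 higher (median -0.90). Lower were Camp, the cathelicidin antimicrobial peptide (-1.49), Ngp (-1.53), Chi3l1, a chitinase-like granule protein (-1.13), and Cebpe, the transcription factor of granulocyte maturation (-1.05). Cebpe lay at -0.83, -0.38, -0.39 and -1.06 against -1.22, -1.91, -1.28 and -2.47, without overlap (SE 0.36, adjusted p = 0.106 in limma). Higher were Stfa2, a stefin protease inhibitor (0.91), the defensin gene RatNP-3b (0.76) and Ms4a3 (0.92). Mpo, an enzyme of primary granules, lay at 0.35. Elane, counted among the 6, was not well above background on any 2 ml/kg array, and no difference is given for it. The median was -0.45 without 0.5 ml/kg array 1 and -0.50 without 2 ml/kg array 4. Stfa2 turned to -0.11 with quantile normalization and to -0.36 with spike-in scaling.

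Monocytes are blood phagocytes that become macrophages in tissue. Of 23 tested genes 15 lay lower and 8 higher (median -0.62), and 5 lower (background 7.06%) and 2 higher genes (background 19.5%) stood at unadjusted limma p below 0.05, 30.4% in all against 26.6%. Clec4a3, a C-type lectin receptor of myeloid cells, lay at 0.87, 2.43, 1.92 and 0.96 against 0.94, 0.27, 1.19 and -0.56, with overlap (difference -1.09, SE 0.38). Ccr2, the receptor by which inflammatory monocytes leave the marrow, differed by -0.82, Cd14, the endotoxin co-receptor, by -0.86, and Csf1r, the receptor for macrophage growth factor, by -0.62. Cx3cr1, a marker of patrolling monocytes that NK and T cells also carry, went the other way. It lay at 0.77, 0.65, 1.22 and 1.69 at 0.5 ml/kg and at 1.49, 1.90, 3.62 and 3.26 at 2 ml/kg. Only 2 ml/kg array 1 lay within the range of the other dose (difference 1.49, SE 0.52, adjusted p = 0.109 in limma). Without 2 ml/kg array 4 the list median was -0.37, and with log2 signal as a covariate -0.27.

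Among genes of eosinophils, basophils and mast cells 8 of 13 lay lower, with a median of -0.49, and the proteases of basophils stood out by size. Mcpt8l2 lay at -2.29, -2.29, -2.59 and -2.0 at 0.5 ml/kg and at -4.36, -4.26, -4.01 and -4.16 at 2 ml/kg. It was well above background on all 4 arrays at the lower and on 0 of 4 at the higher dose, at least 2.67-fold lower at 2 ml/kg (adjusted p = 0.0621 in limma). Mcpt8, the basophil protease itself, lay at 3.72, 4.28, 2.65 and 4.30 against 1.44, 2.81, 2.48 and 2.04, where only 2 ml/kg array 2 overlapped the other dose (difference -1.54, SE 0.67). Mcpt10, outside the list and chosen after its values were seen, lay at -0.13, 0.73, -1.64 and 0.00 against -2.99, -1.71, -1.72 and -2.63 (difference -2.0, SE 0.45, adjusted p = 0.0553 in limma). Its 2 ml/kg values were all lower, though 0.5 ml/kg array 3 came close. Mast cell proteases are similar in sequence: the probes of Mcpt8l2 and Mcpt8 are among those that share 20 bases with the probe of another gene. With such probes left out, 10 of the 13 list genes were left and their median was -0.07.

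The slopes of the 3 protease genes on signal in the other 12 arrays were -0.57, -1.49 and -0.47. The part of array signal in their values was not tested. Hdc, which makes histamine, differed by -1.01 and Prg2, eosinophil major basic protein, by -1.17, neither at unadjusted limma p below 0.05 (0.0695 and 0.158). Il13 (0.90) and the receptor Kit (0.82) lay higher. The list median was -0.18 without 0.5 ml/kg array 2, -0.94 without 0.5 ml/kg array 4, and -0.12 in the 4 arrays of like signal. At unadjusted limma p below 0.05 stood 2 lower and 1 higher of the 13 (23.1%, background 26.6%), a share near the background.

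The lectin receptors Clec4a2 and Clec5a of myeloid cells are outside the lists and were chosen because they lay lower, so they stand for no group. Clec4a2, an inhibitory lectin, lay at 1.12, 1.12, 1.96 and 0.52 at 0.5 ml/kg and at -0.14, 0.27, 0.10 and -1.20 at 2 ml/kg. The groups did not overlap and were -1.42 apart (SE 0.35, adjusted p = 0.0607 in limma). Clec5a was not well above background on any 2 ml/kg array and lay at least 1.90-fold lower there (adjusted p = 0.0553 in limma). Neither had a slope on signal beyond 0.11 in size in the other 12 arrays (0.03 and -0.11).

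Plasma cells secrete antibody. Of 9 tested genes 7 lay lower, with a median of -0.52. Xbp1, the transcription factor of the secretory programme, lay at 0.50, 0.93, 1.35 and 0.47 against 0.38, -0.51, 0.43 and -0.18 (difference -0.78, SE 0.32, adjusted p = 0.144 in limma). The doses did not overlap, by a narrow gap. Sdc1, the plasma cell surface proteoglycan, differed by -1.38 with wide spread (SE 0.73), and was well above background on 1 of 4 arrays at 2 ml/kg.

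Lymphocyte genes lay near the median of all genes. Of 25 T cell genes 12 lay higher and 13 lower (median -0.06), of 22 B cell genes 14 and 8 (0.21, or -1.06 with spike-in scaling), of 19 NK and cytotoxic genes 6 and 13 (-0.09), and of 21 genes of dendritic cells and MHC class II 10 and 11 (-0.06). Their scores spread widely within a dose: the T cell score was 0.02, 0.28, -0.31 and 0.31 at 0.5 ml/kg and -0.76, -0.43, 0.36 and 0.53 at 2 ml/kg. The 2 ml/kg arrays 1 and 2 were low and arrays 3 and 4 high, as they were for B cells (-0.77, -0.34, 0.69 and 0.51). These lists had positive median slopes on signal in the other 12 arrays, of 0.34 to 0.50.

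Single lymphocyte genes departed from their lists. Tbx21, the transcription factor T-bet of type 1 T helper and NK cells, lay at 7.19, 6.03, 6.26 and 7.10 at 0.5 ml/kg and at 8.19, 8.89, 7.41 and 8.09 at 2 ml/kg. The doses did not overlap and were 1.5 apart (SE 0.34, adjusted p = 0.0553 in limma), while its slope on signal elsewhere was -0.83. Cytotoxic genes that often go with it in NK cells did not share its size: Klrk1, the receptor NKG2D, differed by 0.53 on its brightest probe and by -0.43 on another. Pax5, the factor that fixes B cell identity, differed by 1.40 (SE 0.56), with a slope of -1.29 elsewhere, and it lay at -0.10 with log2 signal as a covariate. Foxp3, the factor of regulatory T cells, differed by 0.58 and Ubash3a, a phosphatase of T cells, by 0.66, both with overlap.

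Erythroid genes make hemoglobin and the red cell membrane. Of 44 tested genes of erythroid cells and reticulocytes 37 lay higher and 7 lower at 2 ml/kg. Their median was 0.59 against 0.18 for all genes. It was -0.68 against -1.09 with spike-in scaling, and -0.01 against -0.06 with quantile normalization. The globins Hba-a1 (1.07), Hbb-b1 (1.10) and Hbb-bs (1.13) and Alas2, the first enzyme of erythroid heme synthesis (1.08), led the list, at adjusted limma p of 0.0951 to 0.106. Before scaling, the signal of Alas2 differed by -0.10. At unadjusted limma p below 0.05 stood 9 higher (background 19.5%) and 1 lower gene (background 7.06%), 22.7% in all against 26.6%. The doses did not overlap in 2 of 44 genes (4.55%, background 11.2%). The score was 0.54, -0.72, -0.32 and -0.08 at 0.5 ml/kg and 0.94, 0.81, -0.58 and -0.60 at 2 ml/kg. The 2 ml/kg arrays 1 and 2, the dimmest, scored highest of the 8, and 2 ml/kg arrays 3 and 4 scored among the lowest. In the 12 arrays of other groups 41 of the 44 genes had a negative slope on signal (median -1.39). In the 4 STW5 arrays of like signal the list median was -0.65, and with log2 signal as a covariate -1.10, both below 0. It was 0.30 without 0.5 ml/kg array 2, 0.34 without 2 ml/kg array 1 and 0.31 without 2 ml/kg array 2.

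Within the erythroid list Cpox and Xk stood apart. Cpox, a late enzyme of heme synthesis, lay at -2.14, -2.46, -2.34 and -3.21 at 0.5 ml/kg and at -4.45, -2.92, -4.36 and -4.72 at 2 ml/kg. Only 2 ml/kg array 2 overlapped the other dose. The gene was not well above background on any 2 ml/kg array and lay at least 2.16-fold lower there (adjusted p = 0.0883 in limma), and other enzymes of the pathway, Urod (0.66), Alad (0.74) and Fech (-0.17), did not share this. Xk, a membrane protein of the Kell complex, lay at -2.07, -2.92, -2.34 and -2.17 against -1.09, -1.58, -1.85 and -1.76 without overlap (difference 0.80, SE 0.25).

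Platelets carry mRNA from megakaryocytes. Of 26 platelet and megakaryocyte genes 22 lay higher, against 9092 of all 15231 genes (median 0.30, or 0.13 above all genes). Only 3 higher and 0 lower genes stood at unadjusted limma p below 0.05 (background 19.5% and 7.06%). The doses overlapped in all 26, whereas 11.2% of all genes showed no overlap. Slopes on signal elsewhere were positive for 20 of 26, and the list median turned to -0.96 with spike-in scaling. Vwf, von Willebrand factor, lay at 3.95, 4.79, 4.11 and 3.75 at 0.5 ml/kg and at 5.55, 5.13, 4.35 and 5.35 at 2 ml/kg, with 2 ml/kg array 3 inside the range of the other dose (difference 0.94, SE 0.34). Pf4, platelet factor 4, differed by 0.71, Nrgn by 0.89 and Thbs1, thrombospondin of the platelet granules, by 0.94. The list leaned on 2 ml/kg array 1, which scored 0.93. Its median was -0.05 without that array, 0.15 without 0.5 ml/kg array 4 and 0.66 without 2 ml/kg array 3.

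Interferon-stimulated genes encode the antiviral state. Of 42 tested genes 31 lay higher and 11 lower. Their median was 0.32 against 0.18 for all genes, and -0.95 against -1.09 with spike-in scaling. At unadjusted limma p below 0.05 stood 7 higher and 0 lower genes (background 19.5% and 7.06%). Irf7, the master regulator of type I interferon, differed by 1.37, Isg15 by 1.07 and Isg20 by 1.04. Ifi27 differed by 1.67 (SE 0.73), which leaned on 0.5 ml/kg array 1 at 0.73, while the other 7 arrays lay between 5.11 and 6.65. Mx2, a GTPase that blocks viral replication, lay at 3.33, 2.82, 3.25 and 3.6 against 4.58, 3.57, 3.97 and 3.91 (difference 0.76, SE 0.25, adjusted p = 0.0993 in limma). Only 2 ml/kg array 2 overlapped the other dose. Eif2ak2 (-0.60) and Ifit1 (-0.77) lay lower.

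The score of the interferon list was 0.59, -0.24, 0.54 and -0.50 on the 2 ml/kg arrays and -0.29, -0.43, 0.26 and 0.08 on the 0.5 ml/kg arrays, so that 2 ml/kg arrays 1 and 3 carried it. The list median was 0.15 without either of them, 0.18 without 0.5 ml/kg array 2, 0.54 without 2 ml/kg array 4 and -0.03 with array quality weights. Of the 42 slopes elsewhere 33 were positive, and with log2 signal as a covariate the list median was 0.80.

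Ribosomal proteins build the subunits that translate mRNA. Of 78 tested genes of the cytosolic ribosome 74 lay higher and 4 lower at 2 ml/kg. Their median was 0.50 against 0.18 for all genes and 0.35 for the brightest of the 5 bins by mean level. It was -0.77 against -1.09 with spike-in scaling, and -0.05 against -0.06 with quantile normalization. At unadjusted limma p below 0.05 stood 26 higher (background 19.5%) and 0 lower genes (background 7.06%), 33.3% in all against 26.6%. The doses did not overlap in 27 (34.6%, background 11.2%). Rpl37a lay at 8.95, 8.43, 8.34 and 9.21 at 0.5 ml/kg and at 10.14, 9.87, 9.30 and 9.72 at 2 ml/kg. All 2 ml/kg arrays were higher (difference 1.02, SE 0.26, adjusted p = 0.0624 in limma), and 2 other probes of the gene differed by a median of 0.94. Rplp2, of the ribosomal stalk, differed by 0.90 (SE 0.23), and Rps29 by 1.05, while Rpl15 (-0.46) and Rpl5 (-0.41) lay lower.

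All 78 ribosomal genes were well above background on all 8 arrays, and 68 of 78 had a negative slope on signal elsewhere (median -0.60). The score was -0.09, -0.12, -0.53 and 0.02 at 0.5 ml/kg and 0.33, 0.13, 0.12 and 0.13 at 2 ml/kg. The doses were apart on all arrays, with 0.5 ml/kg array 3 the lowest. The list median was 0.25 in the 4 arrays of like signal and 0.03 with log2 signal as a covariate. Genes of the mitochondrial ribosome did not share the direction: 25 of 68 lay higher and 43 lower (median -0.14), though Mrps35 lay 1.33 higher without overlap (SE 0.32, adjusted p = 0.0586 in limma).

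**Figure D4:**
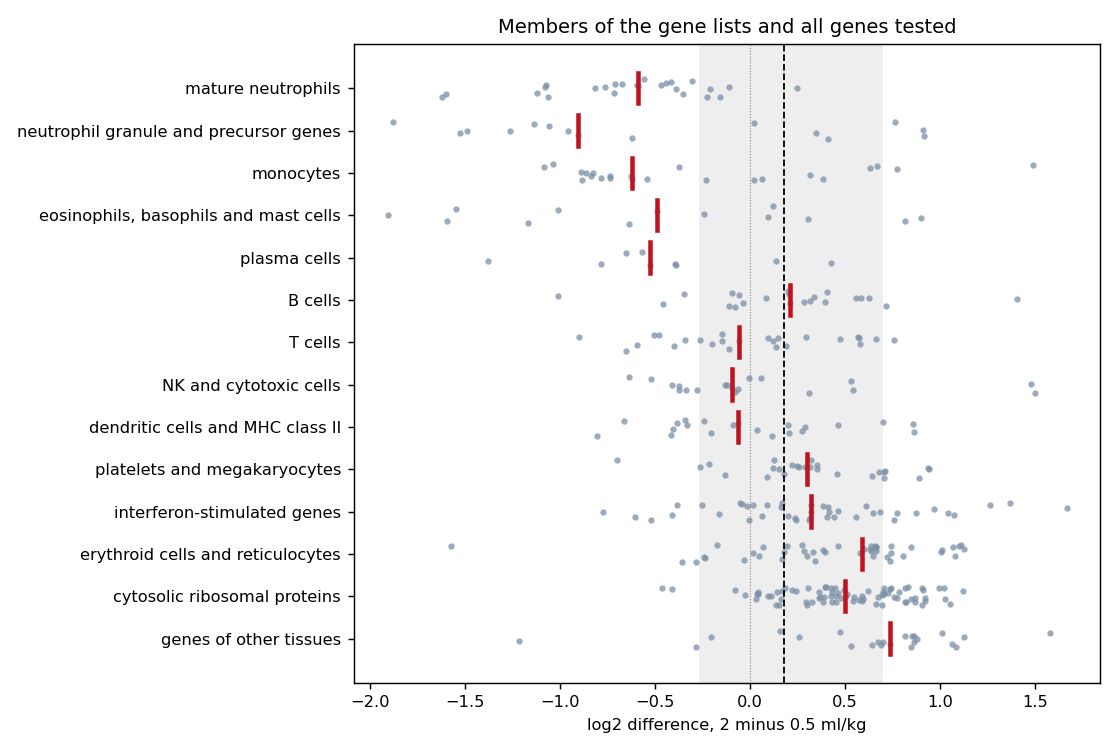
Log2 difference between 2 and 0.5 ml/kg for the members of 14 gene lists (points) with the median of each list (red bars); the dashed line is the median of all 15231 genes and the grey band spans their quartiles. The lists of mature neutrophils (-0.59), granule genes (-0.90) and monocytes (-0.62) lay left of the band's centre. Those of erythroid (0.59) and ribosomal genes (0.50) lay right of it. With spike-in scaling all genes shift alike, to a median of -1.09, and the erythroid and ribosomal medians to -0.68 and -0.77.

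**Figure D5:**
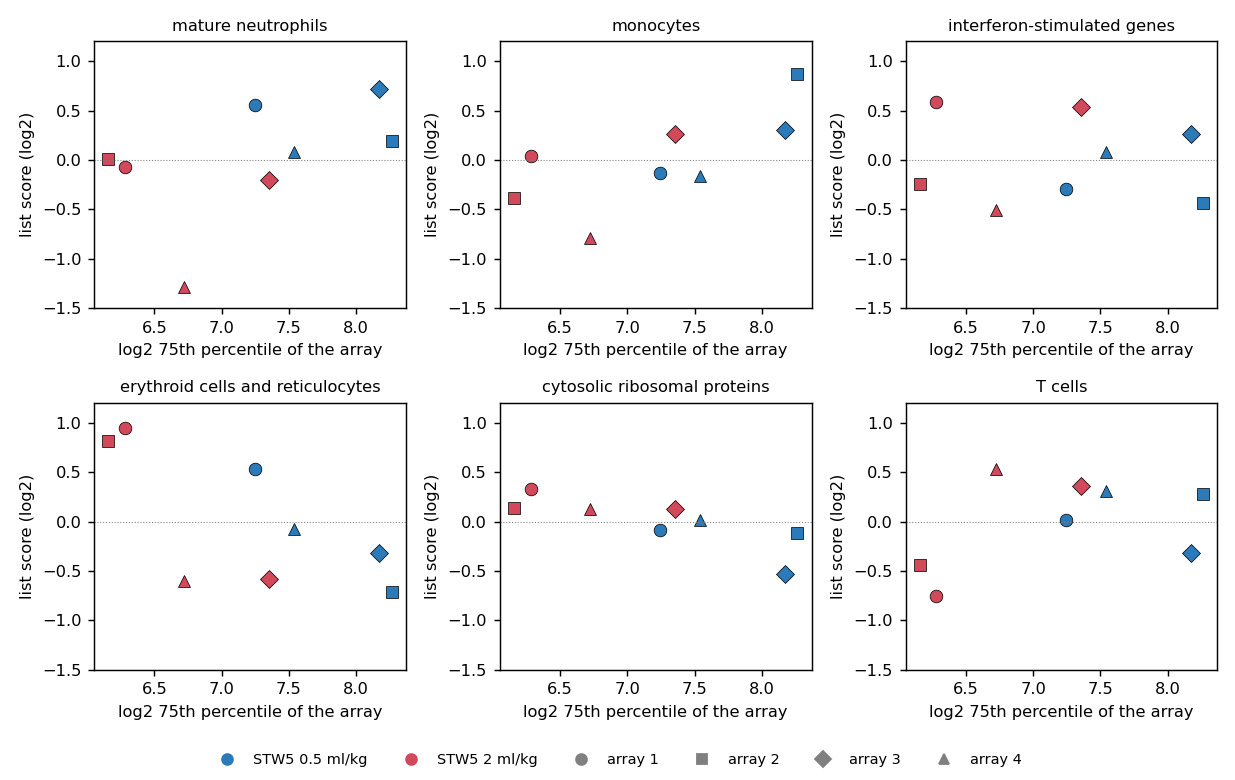
Score of 6 gene lists on each STW5 array against log2 of that array's 75th percentile, with colours for dose and shapes for array number; scores are relative to the array's median gene. Neutrophil scores of all 2 ml/kg arrays lay below those of the 0.5 ml/kg arrays, down to -1.29 on array 4, and erythroid scores were highest on the 2 dimmest arrays (0.94 and 0.81).

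Genes of other tissues were included to see signal that blood should hold at low level at most. Of 23 such genes that were tested, out of 69 on the array, 20 had a higher mean at 2 ml/kg and 3 a lower one. Their median was 0.74 against 0.18 for all genes, and -0.53 against -1.09 with spike-in scaling. At unadjusted limma p below 0.05 stood 6 higher (background 19.5%) and 0 lower genes (background 7.06%), 26.1% in all against 26.6%. Gast, the stomach hormone gastrin, lay at -1.32, -1.94, -1.83 and -1.37 against -0.34, -0.69, -1.15 and -0.83 without overlap (difference 0.86, SE 0.27), and Aqp2, a water channel of the kidney, differed by 1.07 (SE 0.38). With spike-in scaling Gast turned to -0.40 and Aqp2 to -0.20. The median probe of this list had 50% G and C, and 21 of 23 slopes on signal elsewhere were negative. The list median was -0.01 in the 4 arrays of like signal and -0.35 with log2 signal as a covariate.

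Genes of inflammation and of the immediate early response lay lower in the median and included members of both directions. Of 26 immediate early genes 17 lay lower and 9 higher (median -0.26), with 5 lower (background 7.06%) and 4 higher (background 19.5%) at unadjusted limma p below 0.05. Dusp6, a phosphatase that ends ERK signalling, lay at 1.92, 3.80, 2.96 and 2.79 against 1.29, 1.5, 2.11 and 1.22 (difference -1.34, SE 0.33, adjusted p = 0.0609 in limma). The overlap came from 0.5 ml/kg array 1 and 2 ml/kg array 3. Klf4 differed by -1.19, Fos by -1.34 and Nr4a1 by -1.04, while Ier3 (1.11), Egr3 (1.03) and Nr4a2 (1.0) lay higher. Of 28 inflammatory cytokines and NF-kB targets 16 lay lower (median -0.29), with Bcl3 at -0.78, Tnf at -0.94 and Il1b at -0.58, and with Ccl20 (1.09), Csf2 (1.15) and Osm (0.84) higher.

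Of 25 glucocorticoid-induced genes 16 lay lower (median -0.39). Per2, a clock gene, was at least 2.24-fold lower at 2 ml/kg and not well above background there (adjusted p = 0.0951 in limma), whereas Cdkn1a, the cell cycle inhibitor p21, differed by 1.26 (SE 0.35) on its brightest probe and by -0.36 on another. The list median was -0.11 without 2 ml/kg array 1, -0.22 without 2 ml/kg array 2 or 0.5 ml/kg array 3, and -0.08 with log2 signal as a covariate. Of 38 genes of leukocyte adhesion and chemokine receptors 24 lay lower (median -0.20), with Itgal, the alpha chain of the integrin LFA-1, at -0.98 (SE 0.30).

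Lists of metabolism lay at or below the median of all genes. Of 33 genes of fatty acid oxidation and PPAR targets 22 lay lower (median -0.29), 7 of them (background 7.06%) and 0 higher genes (background 19.5%) at unadjusted limma p below 0.05, among which Etfdh (-0.85), Cpt2 (-0.72) and Acadm (-0.45) carry out mitochondrial oxidation. Acsl4, which activates arachidonic acid, was at least 2.02-fold lower (adjusted p = 0.104 in limma). Of 75 genes of oxidative phosphorylation 38 lay higher and 37 lower (median 0.01), with Atp5f1c, a subunit of ATP synthase, at -0.86 and Ndufs1, of complex I, at -0.70, both without overlap. Of 37 genes of glycolysis and hypoxia 22 lay lower (median -0.16), with Ndrg1 at -1.33 (SE 0.36). Bnip3 was at least 2.37-fold lower in the mean and not well above background on any 2 ml/kg array (adjusted p = 0.106 in limma). In both genes the doses overlapped.

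Lists of antioxidant defence and iron lay near the median. Of 41 genes of NRF2 and oxidative stress defence 26 lay higher, near the share of all genes (9092 of 15231). Their median was 0.19, or -0.12 with quantile normalization and -1.08 with spike-in scaling (all genes 0.18, -0.06 and -1.09). Nfe2l2, which encodes NRF2 itself, lay at 1.49, 2.00, 2.29 and 1.33 against 1.22, 0.88, 1.11 and 0.54, all lower at 2 ml/kg (difference -0.84, SE 0.25, adjusted p = 0.0838 in limma). The ferritin chains Ftl1 (1.15) and Fth1 (0.90) lay higher, and with spike-in scaling they turned to -0.12 and -0.36. Of 25 genes of iron uptake, storage and export 14 lay higher, also near that share (median 0.08, or -0.19 with quantile normalization and -1.19 with spike-in scaling).

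The remaining lists concern eicosanoids, drug metabolism, protein handling, RNA and cell division. Of 25 genes of eicosanoid synthesis and receptors 15 lay higher, near the share of all genes (9092 of 15231). Their median was 0.20 against 0.18 for all genes, or -1.07 against -1.09 with spike-in scaling. Ptgdr2, a prostaglandin D2 receptor of eosinophils and basophils, differed by 1.26 without overlap (SE 0.38), and Ptger2, a receptor of prostaglandin E2, by -1.28 (SE 0.41). Ptger2 was well above background on 1 of 4 arrays at 2 ml/kg. Of 18 AhR and drug-metabolism genes 11 lay higher, again near that share (0.23, or -0.02 with quantile normalization and -1.03 with spike-in scaling). Abcc1, an export pump, lay at 0.67 on its brightest probe and at 0.72 on another. Of 36 chaperone genes 24 lay lower (-0.20), with Hspb1 opposite at 1.26, and of 38 proteasome subunits 29 (-0.15). Of 57 splicing factors 36 lay lower (-0.22), while Snrpn lay 1.18 higher without overlap (SE 0.28, adjusted p = 0.0554 in limma), and turned to -0.09 with spike-in scaling. Of 39 cell cycle genes 23 lay lower (-0.07), and of 34 apoptosis regulators 21 (-0.19), with Ripk1 at -0.68 and Hrk at 0.87. Another probe of Ripk1 differed by 0.38, in the opposite direction. Hrk was well above background on 1 of 4 arrays at 2 ml/kg and on 4 of 4 at 0.5 ml/kg, so its higher value rests on dim spots.

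Several of these lists changed direction with the settings for array signal. With log2 signal as a covariate the median was 0.13 for splicing factors, 0.11 for chaperones, 0.17 for apoptosis regulators and 0.14 for adhesion genes. In the 4 arrays of like signal it was 0.13 for splicing factors, 0.06 for chaperones and 0.05 for proteasome subunits. T cell genes lay at 0.33 and 0.26, NK genes at 0.38 and 0.12 and MHC class II and dendritic cell genes at 0.50 and 0.24 in these settings. Medians of -0.35 and -0.26 for oxidative stress defence, -0.34 and -0.23 for iron, -0.20 and -0.08 for eicosanoid and -0.21 and -0.14 for drug-metabolism genes lay below 0. Glycolysis genes (0.02) and immediate early genes (0.01) turned with the covariate, and oxidative phosphorylation genes lay at -0.53 and -0.35.

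In all, 0 of the 990 list members tested passed limma at an adjusted p below 0.05. The medians of lists share the 8 arrays and in part their genes, and they are given as counts and medians without a test of the list.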

How the data were processed

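Blood was drawn into PAXgene tubes and Cy3-labelled cRNA of total RNA was hybridised to 1-colour Agilent rat arrays, per the labels' protocols. Before deposition by the authors, spot intensities had been extracted by the scanner software named in the file headers (Agilent Feature Extraction 10.7.3.1), and its processed, background-corrected signal was used without control spots. The authors' deposited value table holds a linear ratio per probe, whose centring and scaling are not given in the sources used here; it served only as an alternative and to check the columns. Levels were log2(processed signal) minus the 75th percentile of the array. A probe had to be well above background on 4 or more of the 20 arrays, and each gene was read from its brightest such probe. All 20 arrays entered 1 limma 3.58.1 fit of 5 group means (R 4.3.3), with Benjamini-Hochberg adjustment at 0.05, and the p values measure spread between rats, 1 array each. Precision is limited by 4 arrays per dose. Named genes were the 12 of lowest p in each direction and the 2 of lowest p in each of 31 lists; further list members are examples, and Mcpt10, Clec4a2 and Clec5a were chosen after their values were seen. The members and lists were chosen with earlier results of these data known. A bound ("at least") sets the mean of the brighter dose against, per array of the dimmer, the higher of the lowest signal well above background and the probe's own. The fit was tested on simulated data in which 200 of 15231 genes were changed. At the same threshold it found 23% of the changes of 1 log2 unit and 78% of those of 2 log2 units, with 8 false calls. In that setting a change of 1 log2 unit was mostly missed. The simulated noise was independent between genes and held no difference in array signal, and few genes were changed. The shares found therefore need not hold for the real arrays. Alternatives covered scaling, background, filters, covariates, single arrays left out and a replicate block. Some members of the lists are not reported here.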

Additional observations from a re-analysis of the deposited data

Results flagged for a closer look

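Of 172 groups of 4 arrays examined in 86 named results on 84 genes, 7 held 1 array far from the other 3 (4.07%). Chance alone gives about 1 in 20 groups. In 5 of the 7 the array was 2 ml/kg array 3, the brightest of its dose. There Ppp1r3g lay at -3.24 (other 3 arrays -2.56 to -2.45), Shoc2 at 1.54 (1.83 to 1.88), Klrk1 at 1.61 (1.88 to 1.90), Fam118b at -3.64 (-4.50 to -4.39) and RT1-DMa, an MHC class II chaperone chain, at 2.38 (1.24 to 1.40). In all 5 genes array 3 lay on the side of the 0.5 ml/kg arrays. At 0.5 ml/kg, Wdr33 lay at -2.33 on array 4 (-1.97 to -1.91) and Dtx3l, a ubiquitin ligase of the interferon response, at -3.38 on array 2 (-2.81 to -2.76).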

How the results depend on the processing

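The count of genes passing limma at 0.05, 0 with the settings reported, was 7773 with spike-in scaling (0 higher, 7773 lower), 171 with normexp followed by quantile normalization (103 and 68), 5371 with no filter on dim probes (5111 and 260), 165 among probes above background on all 8 arrays (142 and 23), 314 with a common floor (245 and 69) and 507 with array quality weights (362 and 145), whose estimation stopped before convergence. In the deposited value table it was 79 (24 and 55), with the doses exchanged as described. Leaving out single arrays gave 0 to 806 (0 to 646 higher, 0 to 160 lower). The count stayed 0 with quantile normalization, median scaling, the mean of probes, cross-matching probes left out, the 8 arrays alone, log2 signal as a covariate and the 4 arrays of like signal. The replicate numbers did not pair the arrays (r by number 0.51, -0.44, 0.17 and 0.20), and the replicate block gave 529 (446 and 83). The signal difference ranged from -1.42 to -1.02 with single arrays left out, and that in probes above background from -9.37 to -6.47 points. Signs of named genes turned with spike-in scaling for Srp72 -0.29, Shoc2 -0.13, Stk11 -0.11, Acin1 -0.16, Abcc1 -0.60, Tnfrsf13b -0.55, Klrk1 -0.74, Ftl1 -0.12, Ubash3a -0.60, Foxp3 -0.69, Hrk -0.40, E2f1 -0.42, Rpl37a -0.24, Rplp2 -0.36, Zbtb46 -0.41, Ptgdr2 -0.0058, Xk -0.46, Gast -0.40, Aqp2 -0.20, Cdkn1a -0.0036, Hspb1 -0.0046, Ccl20 -0.18, Mx2 -0.51, Dtx3l -0.30, Fth1 -0.36, Snrpn -0.090, Srrm2 -0.64, Mrpl47 -0.064, Stfa2 -0.36, Vwf -0.32, Nrgn -0.38 and Psmd4 -0.34. They turned with quantile normalization for Fth1 -0.061 and Stfa2 -0.11, and with normexp followed by quantile normalization for Fth1 -0.083 and Stfa2 -0.11. They turned with the covariate for Pax5 -0.10, Ftl1 -0.14, E2f1 -0.27, RT1-DMa 0.087, Zbtb46 -0.69, Aqp2 -0.18, Ccl20 -0.18 and Psmd4 -0.20, and in the 4 arrays of like signal for RT1-DMa 0.056 and Zbtb46 -0.14. The turns with spike-in scaling follow from its common shift of -1.27, and the cause of the others was not tested.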

Other observations

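For most of the 24 leading genes the mean of the sham-operated rats lay nearer the 0.5 ml/kg mean, and untreated rats were less one-sided. The sham mean was nearer the 2 ml/kg mean than the 0.5 ml/kg mean for 2 of the 12 higher and 1 of the 12 lower genes, and the mean of untreated rats with esophagitis for 4 of 12 and 6 of 12. Those arrays were on another slide than the STW5 arrays.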
